A study of Mus musculus with 9 samples.

Results

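The cells described here are choroid plexus epithelium-like cells from single-cell RNA sequencing of mouse brain. They were selected on a measured value: a cell was taken as a member if Ttr, the gene of the thyroxine carrier transthyretin, accounted for at least 10% of its unique molecular identifiers (UMIs, each standing for 1 captured transcript). The rule was applied to library 9 of the deposited table. It found 74 members among the 3713 cells of that library (1.99%, exact 95% interval 1.57 to 2.50%) in a table of 29571 cells from 9 libraries. One cell of library 7 also had a Ttr share of at least 10% and was not counted as a member.

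The study took brainstem, cortex and hypothalamus from mice of 9 to 11 weeks in 3 sleep groups. The labels give the strain as C57BL/6, and the study's methods give male C57BL/6J mice. The groups were normal sleep, 12 h of sleep deprivation that began at lights on, and the same deprivation followed by recovery sleep. All brains were collected at ZT12, the hour of lights off. The recovery period is given as 12 h in 1 place and as 24 h in another. Each of the 9 combinations of region and sleep group was 1 library made from 3 pooled mice. Tissue was dissociated with papain, cleared of debris with myelin removal beads and captured with 10X Genomics Version 2 chemistry. The table numbers its libraries by a code that the labels do not tie to a region or a sleep group, so neither is given for library 9. With 1 library there are no replicates. All values below are therefore descriptions of that library, with intervals that cover counting error only and with no test between conditions.

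The choroid plexus is a sheet of epithelium folded around fenestrated capillaries inside the brain ventricles. Its epithelial cells secrete cerebrospinal fluid by pumping sodium, chloride and bicarbonate, with water following, and they carry vitamins, hormones and metals between blood and fluid. They share an embryonic origin with ependymal cells, which line the ventricle walls and bear beating cilia, so that the ependymal cells of the same library are the nearest comparison.

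Ttr lies on chromosome 18 between 20665280 and 20674321 (GRCm38, plus strand). Its share of a member's UMIs ranged from 12.3% to 58.1%, with a median of 30.4%. Over all members Ttr made up 122074 of 378714 UMIs (32.2%). In the 3639 other cells of library 9, it made up 0.182% of UMIs, and 79.1% of these cells had at least 1 Ttr UMI. Ttr was therefore found at a low level throughout the library, and the gene levels below are given as CPM, the summed UMIs of a gene scaled to a fixed total, with Ttr left out of the totals. Members held 256640 UMIs without Ttr.

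Few cells lay close to the rule. The lowest members had Ttr shares of 12.3%, 13.8%, 15.95%, 16.7% and 17.5%. Just outside lay 8 cells between 4.51% and 9.80%, and the next cell was at 1.44%. Of those 8 cells, the highest had 181 UMIs of Enpp2 and 9 of Kl, whereas the second highest had 0 UMIs of both.

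**Figure D1:**
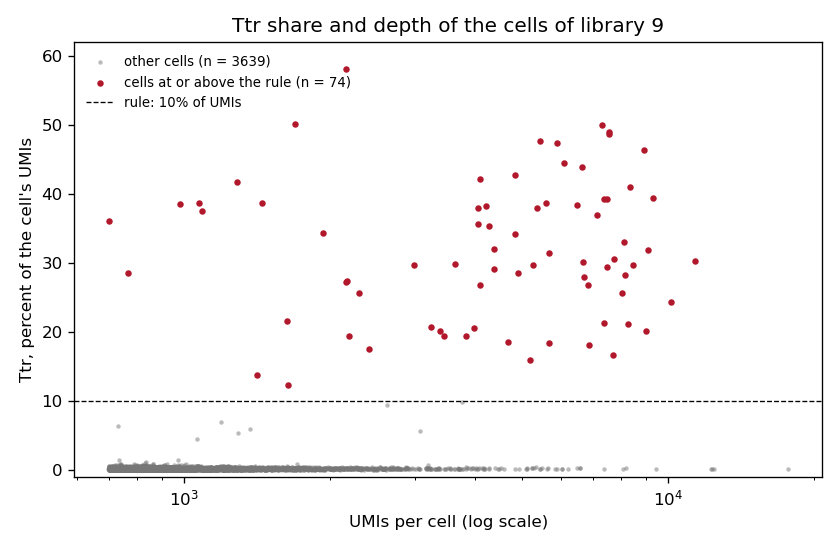
Each point is a cell of library 9, with its UMIs on a log x axis and the percent of them from Ttr on the y axis. Red points are the 74 members, grey points the 3639 other cells and the dashed line the rule of 10%. Members spread from 12.3% to 58.1% across depths, and only 8 grey points lie between 4.51% and 9.80%.

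Members were the deeper cells. Their UMIs ran from 699 to 11352 with a median of 5050.5, against a median of 1007 in other cells (698 to 17707). Members had a median of 1347 genes and other cells had 527. Capture and transcript content of a cell cannot be told apart in these counts. Among members, the Ttr share had a Pearson's r of 0.04 with log10 UMIs over 74 cells, which share 1 library and 1 droplet run.

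The label was checked without Ttr. When library 9 was clustered on all other genes, 73 of the 74 members (98.6%, exact 95% interval 92.7 to 99.97%) fell into 1 of 23 clusters. That cluster held 77 cells, so only 4 of its cells were not members. Its 10 leading genes were Enpp2, Sostdc1, Kl, Defb11, Kcnj13, Htr2c, Prlr, Clic6, Tmem72 and Smim22. Among them are 5 of the 7 marker genes listed for choroid plexus epithelium (Folr1, Clic6, Kcnj13, Kl, Otx2, Prlr and Sostdc1). The member outside the cluster had 2189 UMIs, a Ttr share of 19.4%, 22 UMIs of Enpp2 and 7 of the 9 microglia markers.

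Each member held 1 to 7 of those 7 markers, with a median of 5. At least 3 markers were found in 68 of 74 members (91.9%) and in 8 of 3639 other cells (0.220%). Depth enters this contrast, so each cell was also thinned at random to 300 UMIs without Ttr, which left no cell out. At that depth, at least 3 markers were found in 10 of 74 members (13.5%, 6.68 to 23.5%) and in 0 of 3639 other cells, which allows a share of up to 0.0824%. At least 1 marker was found in 64 members (86.5%, 76.5 to 93.3%), in 49 other cells (1.35%, 0.998 to 1.78%) and in 21 of 611 ependymal cells (3.44%, 2.14 to 5.21%).

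Across the library, 11826 genes had at least 20 UMIs. Of these, 171 (1.45%) were at least 4-fold higher in members than in other cells on the scale of CPM + 10, and 358 (3.03%) were at least 4-fold lower. The median log2 ratio over all genes was -0.28, which is the level against which single genes and lists should be read. All 7 markers were at least 4-fold higher. Their summed level was 5888 CPM (exact Poisson 95% interval 5594 to 6192) in members and 64.2 CPM in other cells. Among the other cell classes, set by at least 3 detected markers per cell and holding at least 20000 UMIs, it was highest in ependymal cells, at 153 CPM, and lowest in endothelial cells, at 20.4 CPM.

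First on the scale of CPM + 10 was Enpp2, which encodes autotaxin, the secreted enzyme that makes lysophosphatidic acid (chromosome 15, 54838901 to 54952892, minus strand, GRCm38). It was found in 74 of 74 members, from 7231 to 65814 CPM per cell with a median of 20291 CPM. Summed over members it reached 23266 CPM (22680 to 23864), compared with 151 CPM in other cells. The plain ratio of CPM was 154, and it was higher for some other genes. Every member was thus above the pooled level of the other cells.

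Next came Sostdc1, a secreted inhibitor of BMP and Wnt signalling, at 1742 CPM in members and 7.80 CPM in other cells. Kl encodes Klotho, the co-receptor for the hormone FGF23, and stood at 1485 CPM against 11.6 CPM. The potassium channel gene Kcnj13 (Kir7.1) measured 690 CPM (592 to 799) against 4.46 CPM, and the chloride channel family gene Clic6 measured 733 against 11.6 CPM. Folr1, the folate receptor that moves folate into cerebrospinal fluid, was at 436 CPM (359 to 525) in members, 18.5 CPM in other cells and 62.5 CPM in ependymal cells. Folr1 thus had the smallest ratio of these 5 genes, 23.6. The beta-defensin gene Defb11 reached 779 against 1.56 CPM, but it belongs to a family of similar genes whose reads the counting may have split.

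Other leading genes have been studied less in this tissue or have roles outside it. Tmem72 (312 against 1.56 CPM) and Smim22 (655 against 14.9 CPM) encode membrane proteins. F5 encodes coagulation factor V and was at 343 CPM in members and 8.69 CPM in other cells. Fabp3, a fatty acid binding protein best known from heart, was at 351 against 10.5 CPM, and Steap2, a metalloreductase, at 374 against 11.1 CPM. For Prr32, 38 UMIs in members stood against 1 UMI in other cells, a ratio of 665 with a counting interval of 112 to 26934. All 25 leading genes were found in at least 33.8% of members and in at most 10.5% of other cells.

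**Figure D2:**
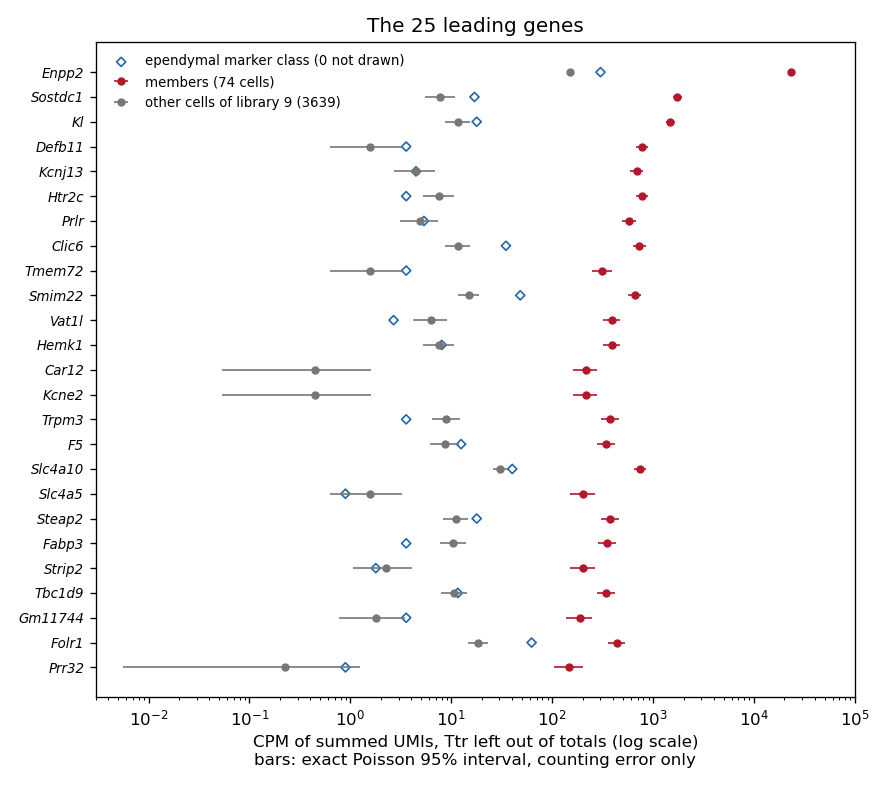
Levels of the 25 genes with the highest ratio of CPM + 10, in CPM without Ttr on a log x axis. Red circles are members, grey circles other cells, both with exact Poisson 95% intervals, and open blue diamonds the ependymal class. Enpp2 stands at 23266 CPM in members against 151 CPM in other cells. The interval of every gene in members lies above that in other cells, which follows from choosing the genes by this ratio.

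Otx2 encodes a homeodomain transcription factor that is needed to form and keep the choroid plexus. It was found in 34 of 74 members at 226 CPM (172 to 292), against 5.35 CPM in other cells. Because the leading genes were high together, their promoters were searched for TAATCC, the core letters bound by Otx-type homeodomains, on both strands (GGATTA on the other). RefSeq start sites on GRCm38.p6 were found for 20 of the 25 genes, with 28 windows reaching from 250 bases before to 50 bases after the start. Enpp2, Sostdc1, Clic6, Folr1 and Gm11744 had no window and were not searched. The letters occurred in 2 of the 28 windows (7.14%) and in 2320 of 32851 windows of all genes (7.06%). The share among the leading genes that were searched was therefore close to that of all promoters.

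The windows holding the letters are shown with the matches in capitals, and that of Kcnj13, which holds none, is shown as the window of a defining marker. The Steap2 window is chr5:5694519-5694818 on the minus strand, with matches that begin 138 and 115 bases before the start. The Vat1l window is chr8:114205390-114205689 on the plus strand, with a match 79 bases before the start. The Kcnj13 window is chr1:87394680-87394979 on the minus strand. Whether these start sites were used in the members was not measured.
Steap2: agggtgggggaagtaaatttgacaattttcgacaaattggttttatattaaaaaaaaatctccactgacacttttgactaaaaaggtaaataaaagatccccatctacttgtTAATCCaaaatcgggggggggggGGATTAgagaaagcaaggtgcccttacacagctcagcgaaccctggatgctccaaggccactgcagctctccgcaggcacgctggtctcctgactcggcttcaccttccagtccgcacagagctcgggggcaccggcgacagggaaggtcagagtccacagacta
Vat1l: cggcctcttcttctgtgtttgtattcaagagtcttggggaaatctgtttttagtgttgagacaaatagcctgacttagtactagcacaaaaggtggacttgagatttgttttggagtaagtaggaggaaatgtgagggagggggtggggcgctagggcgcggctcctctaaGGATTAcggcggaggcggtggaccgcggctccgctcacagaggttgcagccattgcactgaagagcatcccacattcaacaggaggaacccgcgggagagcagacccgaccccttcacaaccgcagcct
Kcnj13: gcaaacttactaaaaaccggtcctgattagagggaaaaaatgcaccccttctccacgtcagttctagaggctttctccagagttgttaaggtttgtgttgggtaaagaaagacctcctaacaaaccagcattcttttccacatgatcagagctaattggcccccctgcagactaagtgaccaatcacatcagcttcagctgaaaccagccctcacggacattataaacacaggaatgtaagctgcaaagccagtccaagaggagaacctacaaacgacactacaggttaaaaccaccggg

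Genes for ion and water transport were mostly higher in members. Of 17 listed genes, 13 were at least 4-fold higher in members than in other cells and none was at least 4-fold lower. The summed level was 5342 CPM (5063 to 5633) against 677 CPM, and the median log2 ratio was 2.97. Compared with the ependymal class, where 2.16% of 7458 genes were at least 4-fold higher in members and 7.87% at least 4-fold lower, 12 of 14 genes were at least 4-fold higher.

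Bicarbonate entry and exit were represented by Slc4a10, at 744 CPM against 30.5 CPM, and by Slc4a5, at 203 against 1.56 CPM, both sodium and bicarbonate carriers. The anion exchanger gene Slc4a2 was at 265 against 20.3 CPM. The carbonic anhydrases, which make bicarbonate from carbon dioxide, were Car2 (472 against 51.5 CPM), Car14 (277 against 31.4 CPM) and Car12. For Car12, 55 UMIs in members stood against 2 in all other cells, a ratio of 481 with a counting interval of 127 to 4071. All 3 carbonic anhydrase genes were thus higher in members.

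The sodium, potassium and chloride cotransporter gene Slc12a2 (NKCC1) measured 795 CPM in members and 44.8 CPM in other cells. Atp1b1, the beta subunit of the sodium pump, was at 1235 against 209 CPM. Kcne2, a potassium channel subunit, had the same counts as Car12 (55 UMIs against 2). The water channel gene Aqp1 had 26 UMIs in 16 members and 2 UMIs in the other cells, a ratio of 227 (57 to 1977). Trpv4, an osmotically sensitive cation channel, was at 129 against 5.79 CPM. Among the listed genes that missed 4-fold, Clcn3, a chloride transporter gene, was at 117 against 77.7 CPM, and the potassium channel gene Kcna1 had 0 UMIs in members, which allows up to 11.7 CPM.

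Genes that carry solutes were mixed. Of 23 listed genes, 20 could be compared, and 5 were at least 4-fold higher and 2 at least 4-fold lower in members. With Ttr kept in totals these counts were 2 and 3. Beside Folr1, the higher ones included the copper transporter gene Slc31a1 (358 against 57.0 CPM), Slc2a12 (97.4 against 13.8 CPM) and Slc6a15 (74.03 against 9.13 CPM). The lower ones were the iron exporter gene Slc40a1, with 1 UMI in members and 79.3 CPM in other cells, and Abcb1a, an efflux pump of brain capillaries, at 15.6 against 196 CPM. Slc16a8, a lactate transporter, had 19 UMIs in members and 0 in the other cells, just under the 20 UMIs asked for. The endocytic receptor genes Lrp2 and Cubn had 0 UMIs in members.

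Secreted proteins listed for the choroid plexus summed to 45881 CPM in members and 21868 CPM in other cells, a difference that came mostly from Enpp2. Without Enpp2 the sums were 22615 CPM (22037 to 23205) and 21717 CPM. Of 24 genes compared, 9 were at least 4-fold higher and 5 at least 4-fold lower, with a median log2 ratio of 0.61. With Ttr kept in totals these were 7, 5 and 0.07. Besides Enpp2 and Sostdc1, the insulin-like growth factor binding protein gene Igfbp2 was at 2030 CPM (1859 to 2212) against 135 CPM and was found in 72 members. Igf2 was at 273 against 45.7 CPM. The 1500015O10Rik gene, which encodes a secreted peptide (augurin), was at 3593 against 268 CPM and was found in every member. One of the 9, Trpm3, encodes a cation channel and not a secreted protein, at 374 against 8.91 CPM, and its intron holds a microRNA gene.

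Other secreted proteins lay within 4-fold of the other cells. Cst3, a protease inhibitor of cerebrospinal fluid, was at 5007 CPM in members and 10622 CPM in other cells. Apoe, a lipid carrier, was at 3725 against 5377 CPM, and Clu (clusterin) at 1266 against 851 CPM. Ptgds, which makes prostaglandin D2, a lipid with a known role in sleep, was at 2279 CPM in members, 1472 CPM in other cells and 363 CPM in ependymal cells. The list is not of secreted proteins alone. Its 5 lower genes were Rarres2 (101 against 1026 CPM), Nnat (109 against 886 CPM), Apod (77.9 against 359 CPM), Cp (3 UMIs against 137 CPM) and Rbp4 (0 UMIs against 56.4 CPM). Rarres2, which encodes chemerin, reached 3414 CPM in ependymal cells.

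Among receptors, 3 of 10 genes compared were at least 4-fold higher in members and 1 was at least 4-fold lower. These counts were 2 and 1 with Ttr kept in totals and 2 and 2 with free RNA subtracted. That subtraction was made from members only, so it can lower their ratios but not raise them. Htr2c encodes the serotonin 2C receptor, first described in choroid plexus, and was found in 53 of 74 members at 775 CPM (671 to 891) against 7.57 CPM. Prlr, the prolactin receptor, was at 577 CPM (488 to 677) against 4.90 CPM. Lepr, the leptin receptor, was at 70.1 CPM (41.6 to 111) against 9.58 CPM. Tfrc, the transferrin receptor, was the lower one, with 1 UMI in members and 47.2 CPM in other cells. Insr and Igf1r, the receptors for insulin and insulin-like growth factor 1, were at 15.6 against 41.4 CPM and at 175 against 247 CPM.

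A gene outside the lists, chosen after its values were seen, was the insulin gene Ins2. It had 22 UMIs spread over 16 members and 1 UMI in the other 3639 cells, a ratio of 385 with a counting interval of 62.2 to 15881.

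Genes of junctions and polarity were divided, with 3 of 11 at least 4-fold higher and 3 at least 4-fold lower, or 2 and 3 with Ttr kept in totals. Cldn2, a claudin that forms pores for sodium and water, was at 203 against 5.57 CPM, and Cldn1 at 105 against 0.891 CPM. The keratin gene Krt18 was at 93.5 against 12.7 CPM. The genes at least 4-fold lower were Cldn5 (42.9 against 297 CPM) and Cdh5 (2 UMIs against 75.1 CPM), which mark endothelial cells, and the cadherin gene Cdh2 (3 UMIs against 90.9 CPM). Epcam and Cdh1, genes of many other epithelia, had 1 UMI each in members.

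**Figure D3:**
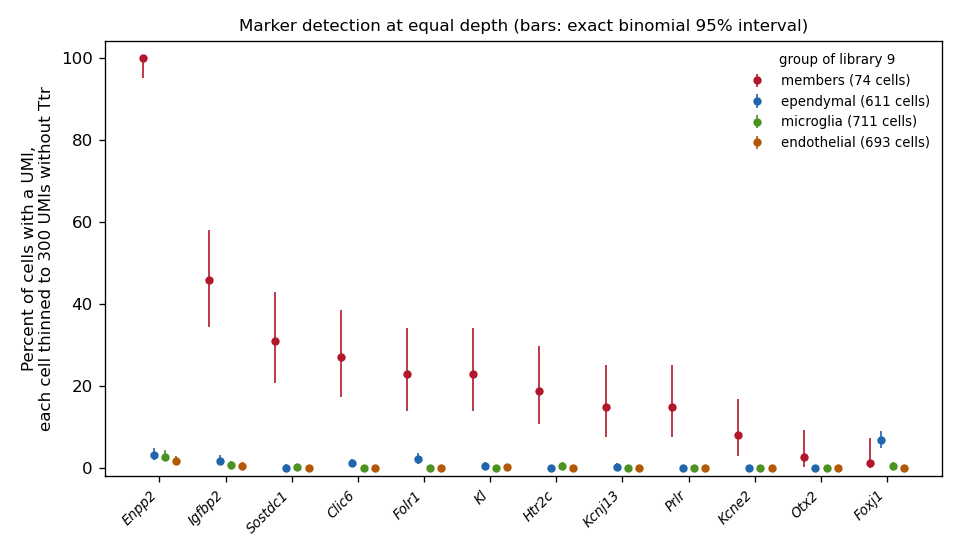
Percent of cells with at least 1 UMI of each gene after every cell of library 9 was thinned to 300 UMIs without Ttr, with exact binomial 95% intervals. Colours are members, ependymal, microglia and endothelial cells. Enpp2 was found in 100% of the 74 members, while Otx2, at 2.70% of members, has an interval that overlaps those of the other classes. In the draw at 500 UMIs, Otx2 was found in 8.22% of members, with an interval above those of these classes.

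At equal depth, detection in members stood above the other classes for most genes examined but not for all. At 300 UMIs, the members' interval lay above those of all 5 classes compared for 13 of 15 genes. These 15 genes were picked from the listed and leading genes above. The share over all genes was not computed, so the count has no baseline. The classes were ependymal, microglia, endothelial, astrocyte and arterial smooth muscle cells. The exceptions at this depth were Otx2 and Aqp1, each found in 2 of 74 members (2.70%, 0.329 to 9.42%), for which the intervals overlapped with all 5. Enpp2 was found in 74 of 74 members and in 3.11% of ependymal, 2.81% of microglia and 1.73% of endothelial cells. Sostdc1 was found in 31.1% of members (20.8 to 42.9%) and in 0.164% of ependymal cells. Clic6 was found in 27.0% of members and 1.15% of ependymal cells, and Folr1 in 22.97% and 2.13%. Kcnj13 was found in 14.9% of members, 0.327% of ependymal cells and 0 of 711 microglia, which should lack the gene. A count of 0 there allows up to 0.422% of cells with a UMI at this depth. Before thinning, 1 of the 711 microglia had a UMI. Thinning was 1 random draw, and at 500 UMIs Kcnj13 was found in 31.5% of members and Folr1 in 19.2%. The genes that overlapped also differed at 500 UMIs. There, Otx2 and Aqp1 were each found in 6 of 73 members (8.22%), and neither overlapped with any of the 5 classes. Their lower limit was 3.08%, and the highest upper limit in a class was 2.59%, for Otx2 in astrocytes. Kcne2, with a lower limit of 0.856%, instead overlapped with astrocytes, where the upper limit was 0.937%. Before thinning, the shares were 75.7% for Clic6 and Kcnj13 and 63.5% for Folr1, at median depths of 3250.5 UMIs without Ttr in members and 1417 in ependymal cells.

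Cilia genes were lower in members than in ependymal cells. The ependymal class was itself defined by detected ependymal markers. Of these, 7 are also on the cilia list, Mia among them, and were left out of the comparison. Of the 13 remaining cilia genes that could be compared, 6 were at least 4-fold lower in members and none at least 4-fold higher. Over all 7458 genes in this comparison, 7.87% were at least 4-fold lower and 2.16% at least 4-fold higher. The summed level of the 14 cilia genes that did not define the class was 986 CPM (868 to 1115) in members, 4958 CPM (4829 to 5091) in ependymal cells and 470.0 CPM (447 to 494) in the remaining cells, so members stood between them. Cfap126, a gene of the ciliary axoneme, was at 113.0 CPM in members against 638 CPM in ependymal cells, the tubulin gene Tuba1a at 261 against 1740.0 CPM and the adenylate kinase gene Ak7, with 2 UMIs in members, at 7.79 against 206 CPM. Foxj1, the transcription factor that switches on motile cilia, was found in 13 members at 62.3 CPM (35.6 to 101) against 337 CPM in ependymal cells. Rfx3, another ciliary transcription factor, was at 70.1 CPM in members and 44.3 CPM in other cells.

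Transcription factors listed for position in the brain gave little signal. Of 28 such genes in the table, 18 had 0 UMIs in members, which allows up to 11.7 CPM each. Emx2, Meis1, Hoxa2, Hoxb4 and En2 were among them. Otx2 was the only 1 of the 14 genes compared that was at least 4-fold higher. That count was 2 with levels averaged over cells and 2 without members holding markers of other classes. Msx1, a homeobox gene of the dorsal midline, was at 160 CPM (115 to 217) against 37.2 CPM, and Lmx1a, a roof plate factor, had 6 UMIs in 5 members. Hoxb3, a hindbrain gene, and Meis2, another listed gene, had 2 UMIs each, and the ventricle from which members came was not established.

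Genes of oxidative phosphorylation were mostly higher in members. All 36 listed nuclear genes had a log2 ratio above 0, with a median of 1.45, and 7 were at least 4-fold higher (Ndufa1, Ndufa4, Cox7b, Cox8b, Atp5g1, Atp5g3 and Atp5l). With Ttr kept in totals, 35 of the 36 were above 0, the median was 0.91 and 2 were at least 4-fold higher, and with free RNA subtracted these were 34, 1.08 and 5. The summed level was 65442 CPM (64456 to 66439) in members, 20825 CPM in other cells and 24350 CPM in ependymal cells. Atp5g1, a subunit of the proton ring of ATP synthase, was at 3098 CPM (2886 to 3321) against 350 CPM, and Ndufa4, a subunit of cytochrome c oxidase, at 4469 CPM against 815 CPM. Cox8b, an isoform best known from heart and muscle, was found in only 14 members at 156 CPM against 4.23 CPM.

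None of the 13 protein-coding genes of the mitochondrial genome reached 4-fold, and all but mt-Nd6 were higher in members with intervals clear of equality. Mitochondrial transcripts made up 21.8% of UMIs without Ttr in members and 12.1% in other cells. Their log2 ratios ran from 0.08 for mt-Nd6 to 1.21 for mt-Nd1, which was at 29976 CPM against 12959 CPM. In single members the mitochondrial percent ran from 8.51% to 56.7% with a median of 19.7%. A high mitochondrial percent also accompanies damaged cells, and that part was not tested. Malat1, a nuclear RNA chosen after its values were seen, moved the other way, with 17149 CPM in members and 94090 CPM in other cells.

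**Figure D4:**
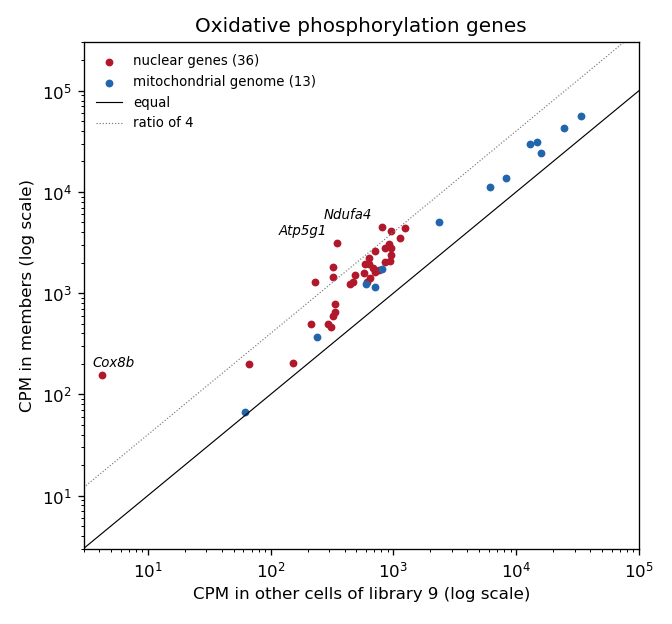
Each point is a gene, with CPM in other cells on the x axis and CPM in members on the y axis, both on log scales. Red points are the 36 nuclear genes of oxidative phosphorylation and blue points the 13 genes of the mitochondrial genome. All points lie above the line of equality on this scale, and Atp5g1 stands at 3098 against 350 CPM.

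Genes of the endoplasmic reticulum and of secretion depended on the scaling. None of 24 was at least 4-fold higher or lower, and the summed level was 6414 CPM against 4045 CPM. The lower count was 3 with free RNA subtracted and 3 without members holding markers of other classes. The chaperone gene Hspa5 was at 662 against 271 CPM and Manf, a secreted stress-induced factor, at 429 against 127 CPM. The median log2 ratio of 0.39 turned to -0.13 when Ttr was kept in the totals. It turned to -0.33 when free RNA was subtracted from members only. No direction is therefore given for this list.

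Among 15 clock genes compared, none was at least 4-fold higher in members and 1 was at least 4-fold lower. The lower count was 4 with free RNA subtracted and 4 without members holding markers of other classes, and the summed level of 635 CPM was 316 CPM with free RNA subtracted. The 1 gene was Per3, with 3 UMIs in members (11.7 CPM, 2.41 to 34.2) against 131 CPM in other cells. The other period genes were Per1 at 23.4 against 34.98 CPM and Per2 at 35.1 against 34.1 CPM. Nr1d2, a repressor of the clock loop, was at 97.4 against 88.4 CPM, and Dbp, a clock output factor, at 81.8 against 151 CPM. No clock gene had more than 25 UMIs in members, which sets wide intervals, and with 1 library no effect of sleep can be read.

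Among stress and immune genes, a minority passed 4-fold, nearly all in the lower direction. Of 16 immediate early and dissociation genes, 5 were at least 4-fold lower and none at least 4-fold higher, and the lower count was 8 with Ttr kept in totals and 8 with free RNA subtracted. Jun was at 19.5 against 230.1 CPM and Fos at 42.9 against 272 CPM. Among 13 glucocorticoid targets and metallothioneins, 3 were at least 4-fold lower, and 6 and 7 under those alternatives. Mt1 was at 1036 against 5076 CPM and Mt2 at 179 against 1330 CPM, whereas Sgk1, a kinase that regulates sodium transport, was the 1 gene at least 4-fold higher, at 468 CPM (388 to 559) against 69.7 CPM. Of 12 antigen presentation and interferon genes, 5 were at least 4-fold lower, and 10 and 9 under the same alternatives. Cd74 was at 58.4 against 786 CPM, but at 55.3 CPM in ependymal cells. Over all genes, 358 were at least 4-fold lower than in other cells, and 512 with Ttr kept in totals. That number was not counted with free RNA subtracted. Against ependymal cells, 2 of 11 immediate early genes, 3 of 11 glucocorticoid targets and 2 of 11 antigen presentation genes were at least 4-fold lower. Over all genes in that comparison, 7.87% of 7458 were at least 4-fold lower. Of the 2 cold-inducible RNA-binding genes, Rbm3 was at 300.0 against 191 CPM and Cirbp at 62.3 against 88.4 CPM. With free RNA subtracted from members only, which can lower a ratio but not raise it, neither was higher in members. No direction is therefore given for Rbm3.

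**Figure D5:**
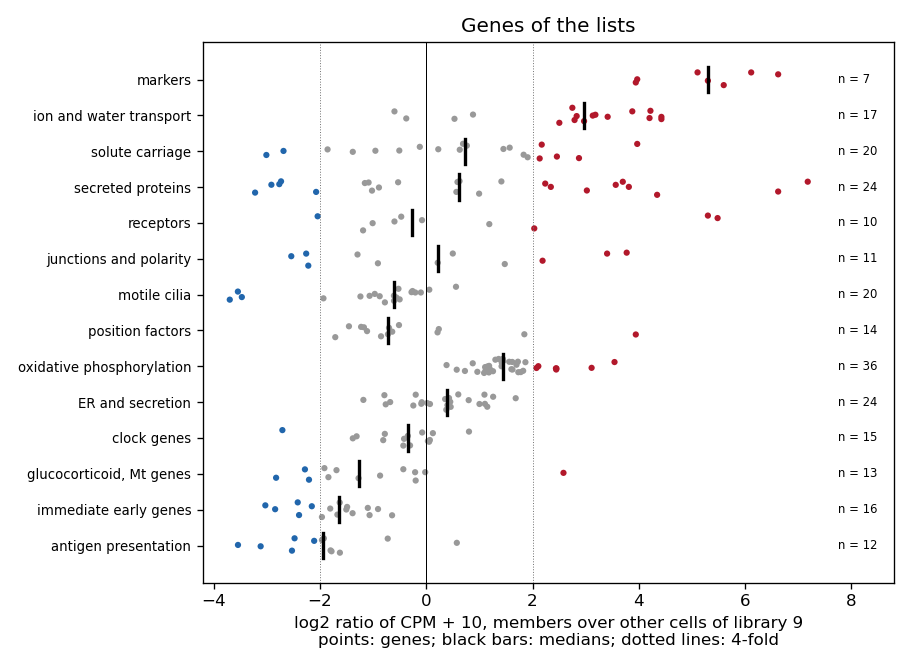
Each point is a gene of a list, placed by the log2 ratio of CPM + 10 between members and other cells. Black bars are list medians, dotted lines mark 4-fold, and colours mark genes past it. The bars for markers, ion and water transport and oxidative phosphorylation stand at 5.30, 2.97 and 1.45, while that for antigen presentation stands at -1.94.

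The low end of the profile held genes known from other cell types. Among genes of at least 500 CPM in other cells, the 10 lowest were Tagln and Myl9 of smooth muscle, the hemoglobin genes Hbb-bt, Hba-a1, Hba-a2 and Hbb-bs, the cilia genes Ccdc153 and Tmem212, Cd74 and Crip1. Tagln had 3 UMIs in members and 602 CPM in other cells. Hbb-bs was at 1687 against 23374 CPM, and at 2004 CPM in ependymal cells. Compared with ependymal cells, 8 of the 10 genes lay within 4-fold, and the other 2, Ccdc153 and Tmem212, are among the markers that define that class.

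Transcripts of other cell types were nonetheless present in members. At least 3 markers of another class were detected in 54 of 74 members, of microglia in 40, of ependymal cells in 38 and of endothelial cells in 26. The 9 microglia markers summed to 1301 CPM in members, to 744 to 1055 CPM in classes other than microglia with at least 20000 UMIs, which leaves out the 20 macrophages, and to 25294 CPM in microglia themselves. The 8 ependymal markers summed to 1481 CPM in members, to 132 to 564 CPM in the other classes and to 13530 CPM in ependymal cells, and 655 CPM of the members' sum came from Mia. Members thus stood above these other classes for both lists. The 5 erythroid genes summed to 2993 CPM in members and to 2478 to 74031 CPM elsewhere. None of the microglia or ependymal markers was at 0 UMIs in members, and 1 of the erythroid genes, Alas2, was. The part of such transcripts in the cilia and immune values above was not tested.

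Enpp2 and Ttr were also found in the other cell classes, and where those transcripts came from was not tested. For every 1000 Ttr UMIs, members held 48.9 UMIs of Enpp2 (47.7 to 50.2). Microglia held 58.4 (46.3 to 72.7), endothelial cells 55.1 (42.5 to 70.3) and astrocytes 51.6 (36.2 to 71.5), so all 3 intervals include the members' ratio. Ependymal cells held 139 (125 to 155), but 56.9 (46.6 to 68.8) without the 2 of 611 cells in which Ttr was at least 1% of UMIs, an alternative chosen after seeing the data. Fibroblast or leptomeningeal cells, 84 in number, held 153 (101 to 222), and none of them was at 1% or more. Ttr, the denominator, is also the gene on which members were selected.

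Members differed from each other in mitochondrial transcripts, Malat1 and Enpp2 among others. Dispersion, here the squared deviation of a gene's counts divided by the count expected at each cell's depth, is near 1 for counting error alone and grows with a gene's level, so it does not rank genes by relative spread. It had a median of 1.22 over 845 genes with at least 40 UMIs in members. The highest values were those of mt-Atp6 (46.7), Malat1 (39.5) and mt-Co3 (27.6), and 5 of the first 10 genes were mitochondrial. Enpp2 was at rank 6, with 13.7. Malat1 ran from 1182 to 99110 CPM between members, with a median of 15050 CPM.

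Some genes were patchy. Abhd2, a lipid hydrolase and one of the genes chosen for their dispersion, was found in 59 members with a highest level of 12140 CPM and a median of 820.2 CPM. Apoc1, found in 14 members, reached 19 UMIs in 1 of them, and its summed level was 207 CPM against 22.3 CPM in other cells. Mia, on the ependymal and cilia lists, was found in 51 members with a dispersion of 5.14.

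The rule was also applied to the libraries it was not set on. In libraries 1 to 6 and 8, 0 cells reached 10% (a count of 0 allows up to 0.0766 to 0.117% of cells). Library 7 had 1 such cell among 3731 (0.0268%), with 1489 UMIs and a Ttr share of 26.3%. It held 9 of the 25 leading genes, among them 12 UMIs of Enpp2, 2 of Prr32 and 1 each of Kl and Kcnj13. The 100 cells of library 7 closest to it in depth, with 1453 to 1526 UMIs, held a median of 0 and at most 2 leading genes. With Ttr kept in the totals, Ttr measured 26718 CPM in library 9 and 0 to 119 CPM in the others.

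The 9 libraries held 2575 to 3916 cells each, with total UMIs of 1522766 to 5488950 and median UMIs per cell of 402 to 1055. Library 9 shared 11 to 22 cell barcodes with each other library, and 2 of the 74 member barcodes were among those shared.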

How the data were processed

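Cell suspensions were sequenced as 9 libraries. The authors deposited 1 table of UMI counts (whole numbers, no normalization) made with Cell Ranger 2.2.0, aligned to GRCm38. The submitters' processing notes also name R 3.5.3. The annotation release is not given in the sources used here. The table holds 18634 genes and 29571 cells, numbered into libraries by the order of their codes.

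Counts were summed over cells and scaled to CPM without Ttr, with exact Poisson 95% intervals. Shares carry exact Clopper-Pearson intervals. Both cover counting error only, and a count of 0 allows up to 3 counts. Genes with at least 20 UMIs in members and other cells together were compared by the ratio of CPM + 10, called at 4-fold. No statistical test was run, since there is 1 library. Cell classes needed at least 3 markers and no tie. Clustering used counts scaled to 10000, 2000 variable genes, 13 principal components, 20 neighbours and Leiden resolution 1 (scanpy 1.11.5, Python 3.11.15, with a fixed seed). No doublet caller was run, and cells with markers of other classes were left out as an alternative. In another alternative, free RNA was taken as the lowest level of each gene among classes with at least 20000 UMIs. It was subtracted from members only and not from other cells, so it can lower the members' ratios but not raise them. The code was tested on simulated data. Coordinates are from GENCODE and RefSeq tables.

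Genes were named from fixed lists, together with the 25 highest ratios among genes with at least 20 UMIs in members and found in at least 10% of them, and the 10 lowest among genes of at least 500 CPM in other cells. Genes chosen after their values were seen are marked as such, or were named for their dispersion or as genes of the mitochondrial genome. The members and the lists were chosen with earlier results of these data known. Results for a few listed genes are not reported here.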

Additional observations from a re-analysis of the deposited data

How the results depend on the processing

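Leaving out the 54 members with 3 or more markers of another class left 20 members, lowered the summed choroid plexus markers to 5175 CPM and raised the genes at least 4-fold lower to 1177. Those markers were counted without thinning, so this alternative also depends on the depth of each member. Keeping Ttr in the totals gave 3990 CPM for the markers and 85 genes at least 4-fold higher. A pseudocount of 1 CPM gave 266 genes at least 4-fold higher and 2537 lower. Totals without mitochondrial and hemoglobin genes and Malat1, an alternative chosen after seeing the data, gave 7732 CPM for the markers and 546 genes at least 4-fold lower. The cause of these shifts was not tested, apart from the smaller number of members in the first and the changed totals in the second and the last. Of the other 23 values for the main results, all moved by less than 1.5 times or stayed within their counting intervals. These include 81 members at a Ttr threshold of 5%, 63 at 20% and 71 among cells of at least 1000 UMIs. The share of members in 1 cluster was 98.6% at Leiden resolutions of 0.5 and 2. Summed levels of single lists, marker shares and the Enpp2 ratio of the ependymal class moved in 26 cases and did not in 21. The median log2 ratio over all genes went from -0.28 to -0.56 with Ttr kept in totals, to -0.59 with free RNA subtracted and to -0.72 without members holding other classes' markers. Under each of these the medians of the ion and water transport and oxidative phosphorylation lists stayed above 0. With 256640 UMIs in members, a count of 0 allows up to 11.7 CPM. No paired analysis was possible because each group is 1 library and the members come from 1 library.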
